A study of Mus musculus with 4 samples.

Results

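Genes of the Six-family and of its Eya partners were examined in the frontonasal prominence (FNP), from which the nose is built, in mouse embryos with an altered form of SMCHD1. The members were the 8 rows of the deposited table whose gene name was Six2, Six3, Six4, Six5, Eya1, Eya2, Eya3 or Eya4, out of 33708 rows in all. The rule used their names, but they were proposed with earlier results of these data known. The FNPs came from FVB/NJ embryos at E10.5, all with 29 somites, and 4 embryos were sequenced. WT embryos (Smchd1+/+, 2 embryos) were compared with MD43 embryos (Smchd1MommeD43/MommeD43, 2 embryos), which are homozygous for a missense allele recovered from a chemical mutagenesis screen. SMCHD1 is a chromatin protein that silences genes, and changes in human SMCHD1 are known from arhinia, in which the nose fails to form. The comparison asks which transcripts of the developing nose and snout differ when SMCHD1 carries this change. By their labels, 1 WT embryo was female and 1 male, and both MD43 embryos were male. A supplement of the study names the second WT embryo as female, so sex and genotype may not be separable. The second WT and the second MD43 embryo shared a mother.

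Six-family genes encode homeodomain transcription factors, and Eya genes encode their coactivators, which do not bind DNA themselves and also act as phosphatases. The proteins meet in complexes that mark the preplacodal ectoderm, the band of head ectoderm from which the nasal, lens, otic and other placodes arise. Six2 is also known from frontonasal mesenchyme and from progenitors of the kidney, Six3 from the anterior forebrain and eye, and Six3 is known as a repressor that works with Groucho (Tle) proteins. Mutations of human EYA1 cause branchio-oto-renal syndrome and those of EYA4 hearing loss.

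The table gives 1 value per genotype, the authors' mean of log2 RPKM (reads scaled to transcript length and library depth) over both libraries, so no value per embryo and no spread between embryos can be given. Levels are written below as RPKM, which makes them geometric means of a pair of libraries. Differences are MD43 minus WT on the log2 scale. No difference was tested. The ± beside a difference is a standard error for counting alone, the lowest that the recovered reads permit, and variation between embryos comes on top of it. The implied depth was 22328791 reads per MD43 library and 16055882 per WT library, a ratio of 1.39. As a result, genes with no read in any library are listed at a difference of -0.48. All 8 members lay far from that floor, with 398 to 1664 reads in WT and 611 to 2480 in MD43. Smchd1 itself, whose missense allele need not alter its RNA, was at 9.93 RPKM in WT and 9.84 in MD43.

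No member differed by 2-fold. Eya2 was the furthest up, at 14.5 RPKM in WT and 18.5 in MD43, and Six3 the furthest down, at 7.98 in WT and 6.59 in MD43. All 4 Eya members were higher in MD43, whereas 3 of the 4 Six-family members were lower and Six4 was about level. Of the 8 members, 0 were at least 2-fold higher and 0 at least 2-fold lower in MD43. The background was 15461 genes that reached 10 reads in WT or MD43. Of these, 51.1% were higher in MD43 by any amount, as were 5 of the 8 members. At 2-fold or more, 1.64% of all genes were higher and 2.46% lower. With 1.5-fold as the limit the members again numbered 0 in both directions, beside 4.26% of all genes higher and 6.39% lower. The median difference was 0.07 over the 8 members and 0.0053 over all 15461 genes. For 7 of the 8 members the 95% counting interval of the difference left out 0, as it did for 50.3% of all genes and for 57.3% of the 10800 genes that reached 100 reads in both WT and MD43, called well covered below.

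**Figure D1:**
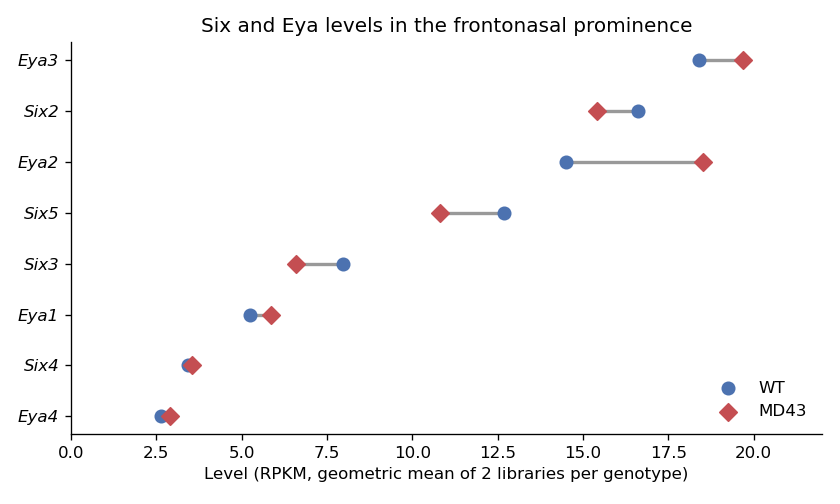
Levels of the 8 members in RPKM, with WT as circles and MD43 as diamonds, each the geometric mean of 2 libraries and without an error bar because the table holds no spread. The levels run from 2.64 RPKM for Eya4 to 18.4 for Eya3 in WT, the 4 Eya genes lie further right in MD43, and Six2, Six3 and Six5 lie further left.

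In WT the level, which is per transcript length, was highest for Eya3 (18.4 RPKM) and was followed by Six2 (16.6), Eya2 (14.5), Six5 (12.7), Six3 (7.98), Eya1 (5.24), Six4 (3.42) and Eya4 (2.64). The order in MD43 was the same except that Eya2 and Six2 changed places. Eya2 was at 0.87 times the level of Six2 in WT and at 1.21 times in MD43. Among the 15461 genes of the background, the level of Eya3 stood at percentile 81.7 and that of Eya4 at percentile 37.0, so the members ranged from fairly abundant to below the middle. Within the families, Six2 was at 2.08 times the level of Six3 in WT and 2.33 times in MD43, Eya2 at 2.76 times that of Eya1 in WT and 3.17 times in MD43, and Eya3 at 6.97 times that of Eya4 in WT and 6.77 times in MD43. Neighbours in this order cannot be ranked against the spread between embryos, which is not known. Within the FNP the 4 Six-family members summed to 40.7 RPKM in WT and 36.3 in MD43, and the 4 Eya members to 40.7 in WT and 47.0 in MD43.

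Six3, Six2 and Six5 were the lower members, and the pieces of DNA in front of their starts are shown with that of Six3os1, a long noncoding RNA read from the opposite strand at Six3, and with that of Eya3 as a higher member for contrast. The sequences are from RefSeq (GRCm38.p6), with entries for 6 of the 8 members. No entry was used for Eya1 and Eya2. Each run is the part of the 250 bases before the RefSeq start that lies outside exons of GENCODE M21. It is written 5′ to 3′ on the strand of the gene, and capitals mark CpG dinucleotides. The RefSeq start of Six3 lies inside the GENCODE span of the gene given below, and so does its run.

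Six2, chr17:85688275-85688504, minus strand: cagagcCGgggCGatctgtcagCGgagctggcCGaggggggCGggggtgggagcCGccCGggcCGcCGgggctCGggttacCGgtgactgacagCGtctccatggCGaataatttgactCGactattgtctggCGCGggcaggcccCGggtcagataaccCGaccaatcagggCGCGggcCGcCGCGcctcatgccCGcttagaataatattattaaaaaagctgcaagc
Six3, chr17:85620584-85620789, plus strand: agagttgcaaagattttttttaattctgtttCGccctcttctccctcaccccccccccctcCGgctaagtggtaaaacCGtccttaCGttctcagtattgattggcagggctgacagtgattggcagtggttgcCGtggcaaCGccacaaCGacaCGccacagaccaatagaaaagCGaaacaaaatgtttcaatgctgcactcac
Six3os1, chr17:85618399-85618646, minus strand: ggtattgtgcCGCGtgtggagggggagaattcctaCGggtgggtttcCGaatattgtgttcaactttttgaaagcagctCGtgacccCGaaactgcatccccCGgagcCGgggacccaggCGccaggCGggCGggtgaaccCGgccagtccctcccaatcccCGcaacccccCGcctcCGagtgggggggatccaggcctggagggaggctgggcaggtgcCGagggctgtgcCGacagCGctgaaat
Six5, chr7:19094294-19094543, plus strand: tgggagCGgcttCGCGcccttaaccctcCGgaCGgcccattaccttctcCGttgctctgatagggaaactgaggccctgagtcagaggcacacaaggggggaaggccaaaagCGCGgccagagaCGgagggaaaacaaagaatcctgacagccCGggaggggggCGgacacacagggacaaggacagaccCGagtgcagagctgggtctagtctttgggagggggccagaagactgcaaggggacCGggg
Eya3, chr4:132638796-132638986, plus strand: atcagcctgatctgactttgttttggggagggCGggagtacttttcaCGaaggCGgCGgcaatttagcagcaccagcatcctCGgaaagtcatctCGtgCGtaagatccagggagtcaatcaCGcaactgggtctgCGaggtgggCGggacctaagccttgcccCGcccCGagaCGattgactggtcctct

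Over the whole 250-base windows, Six2 held 26 CpG, Six3 10, Six5 13, Eya3 18 and Six3os1 19, against a median of 6 over 32851 promoters. The counts of the lower members lay on both sides of that of Eya3, the only higher member shown. The 2 windows of Eya4 held 35 and 25 CpG and those of Six4 held 15 and 13. The windows of each pair overlap. Exons take up 193 and 246 bases of the Eya4 windows and 211 and 31 of the Six4 windows. A relation of CpG content to the differences was not tested. The core of the MEF3 site, which Six-family proteins bind, was searched on both strands as TCAGGTT. It was found in 1 of 8 windows of the members, in front of 1 of the 2 starts of Six4, and in 3.49% of all promoters. In that Six4 window 211 of the 250 bases are exonic, and the match lies among them. TATAAA was in none of the 8 windows and in 12.4% of all promoters. CCAAT was in the windows of Six2, Six3, Six3os1 and 1 start of Six4 and in 33.8% of all promoters. Each match describes these letters only.

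Six3 (ENSMUSG00000038805, GRCm38 chromosome 17, 85613608 to 85629302, plus strand) acts early in forebrain, eye and olfactory patterning. It was at 7.98 RPKM (698 reads) in WT and 6.59 RPKM (801 reads) in MD43, a difference of -0.28 ± 0.05, or 17.5% below WT. Of the 10800 well covered genes, 9.36% lay as far down or further. Its antisense partner Six3os1 (ENSMUSG00000093460, chromosome 17, 85600651 to 85618398, minus strand) was lower too, at 13.0 RPKM in WT and 9.54 in MD43, a difference of -0.45 ± 0.03. The level of Six3os1 was 1.63 times that of Six3 in WT and 1.45 times in MD43. Exons of the pair share 106 bases, 1.95% of the Six3 exons, and exons of the antisense transcript Gm28528 share another 168. The libraries keep strand but the use of strand in the counting is not stated, so reads in these stretches cannot be assigned with certainty.

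Six2 (ENSMUSG00000024134, chromosome 17, 85684277 to 85688274, minus strand) is the neighbour of Six3 and a marker of frontonasal mesenchyme. It was at 16.6 RPKM (565 reads) in WT and 15.4 RPKM (726 reads) in MD43, a difference of -0.11 ± 0.06, with a 95% counting interval whose upper end lay just below 0. The long noncoding RNA CJ186046Rik, 5355 bases away, had 10.7 reads in WT and 4.24 in MD43, a difference of -1.81 ± 0.59 on very few reads. At the Six2 and Six3 locus, Six2, Six3 and Six3os1 reached 10 reads in both genotypes and were listed lower in MD43. CJ186046Rik reached 10 reads in WT alone, so the filter let it in only through the genotype where it was higher.

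Six5 (ENSMUSG00000040841, chromosome 7, 19094594 to 19098549, plus strand) lies next to Dmpk, the gene that carries the expanded repeat of myotonic dystrophy in humans. It was at 12.7 RPKM (612 reads) in WT and 10.8 RPKM (724 reads) in MD43, a difference of -0.23 ± 0.06. Dmpk, 773 bases upstream, differed by 0.04 ± 0.08, with 300 reads in WT and 429 in MD43. The nearest gene that reached 10 reads was thus level within its counting error.

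Six4 (ENSMUSG00000034460, chromosome 12, 73099609 to 73113456, minus strand) is known from placodes and muscle. It was at 3.42 RPKM (596 reads) in WT and 3.54 RPKM (858 reads) in MD43, a difference of 0.05 ± 0.05, with a 95% counting interval from -0.06 to 0.16. Six6, a Six3 relative of the optic field, was at 2.87 RPKM in WT and 2.83 in MD43, a difference of -0.02 ± 0.10.

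Eya2 (ENSMUSG00000017897, chromosome 2, 165595032 to 165771727, plus strand) was at 14.5 RPKM from 688 reads in WT and at 18.5 RPKM from 1227 reads in MD43. Its difference was 0.36 ± 0.05, or 28.3% above WT, and 3.14% of the 10800 well covered genes lay as far up or further. Eya1 (ENSMUSG00000025932, chromosome 1, 14168954 to 14310235, minus strand) was at 5.24 RPKM (656 reads) in WT and 5.85 RPKM (1021 reads) in MD43, a difference of 0.16 ± 0.05. These are the Eya genes best known from the early placodes, and both were listed higher.

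Eya4 (ENSMUSG00000010461, chromosome 10, 23102963 to 23350786, minus strand) was the least abundant member, at 2.64 RPKM (398 reads) in WT and 2.91 RPKM (611 reads) in MD43, a difference of 0.14 ± 0.07. Eya3 (ENSMUSG00000028886, chromosome 4, 132638987 to 132724765, plus strand), the most widely expressed family member, was at 18.4 RPKM (1664 reads) in WT and 19.7 RPKM (2480 reads) in MD43. Its difference of 0.10 ± 0.03 was the smallest of the Eya genes. For Eya1, Eya3 and Eya4 between 18.9% and 30.2% of the well covered genes lay as far up or further, so differences of this size were common in the table.

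**Figure D2:**
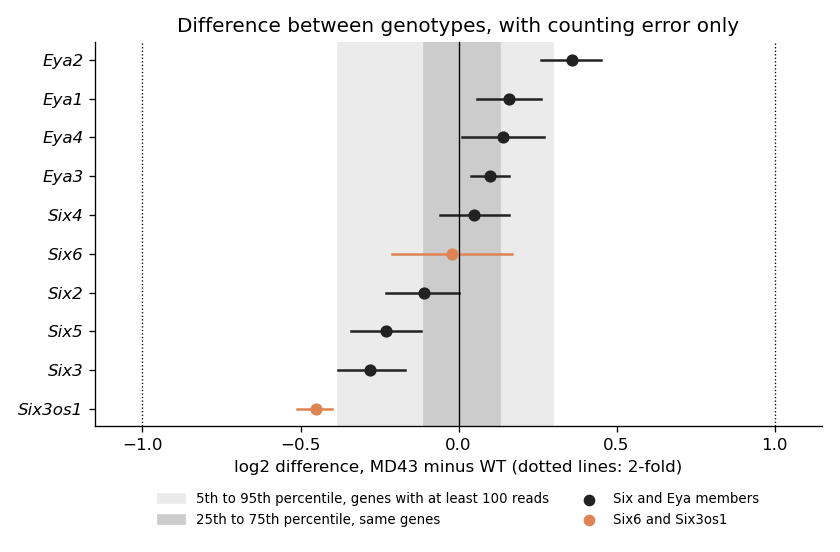
The log2 difference (MD43 minus WT) of the 8 members in black and of Six6 and Six3os1 in orange, with bars for the 95% interval that counting error alone allows. Grey bands hold the middle 50% and the middle 90% of the 10800 well covered genes, and among the members only Eya2, at 0.36, lies outside the wider band, whose upper edge is 0.30.

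Other genes near the members were mostly listed close to WT. Of 31 genes within 100 kb of a member, 22 had at least 10 reads, with 13 higher, 9 lower and a median difference of 0.05, which was -0.03 without the filter on reads. The furthest up were Slc2a10 near Eya2 (0.31 ± 0.15), Mypop near Six5 (0.24 ± 0.13) and Smpdl3b near Eya3 (0.23 ± 0.12). The furthest down, CJ186046Rik, Mypopos near Six5 (-0.54 ± 0.26) and Six3os1, were all noncoding. CJ186046Rik, which reached 10 reads in WT alone, was the 1 gene of the 22 past 2-fold.

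**Figure D3:**
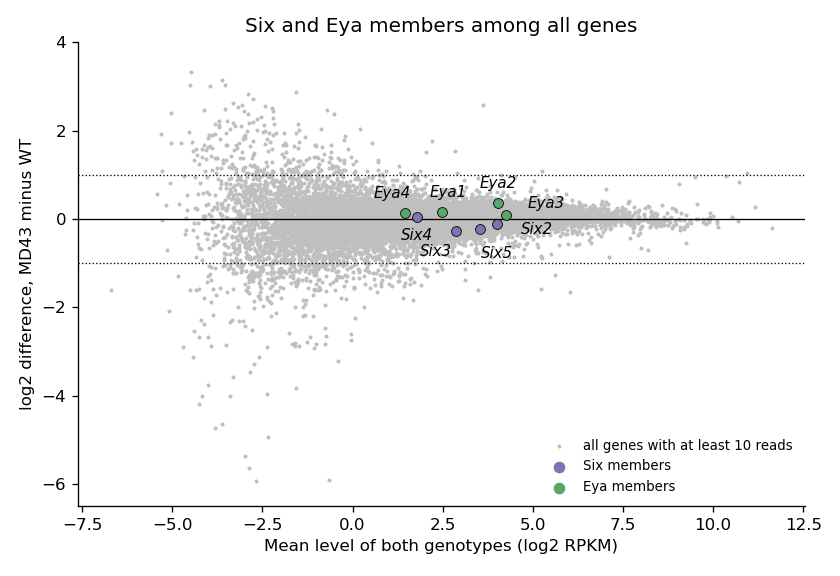
The log2 difference (MD43 minus WT) against the mean log2 RPKM of both genotypes for the 15461 genes of the background, in grey, with Six-family members in purple and Eya members in green. All 8 members lie inside the dotted 2-fold lines, between -0.28 and 0.36. Of the well covered genes, 3.14% lay as far up as Eya2 or further.

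Genes that work with the members were then described. For the counts of higher and lower genes in all lists below, the share higher over all 15461 genes was 51.1%. Of 9 partners and corepressors of Six-family proteins, 6 were higher and 3 lower, and the median was 0.01. Tle1, a Groucho corepressor, was furthest up at 0.21 ± 0.03. The other Groucho gene Tle2 was furthest down at -0.62 ± 0.29 on 23.2 reads in MD43, and Sobp, a Six-family cofactor, was at -0.30 ± 0.07. Dach1, the mouse relative of fly dachshund that joins complexes of Eya proteins, differed by 0.08 ± 0.04.

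Among 16 regulators of the preplacodal ectoderm and nasal placode, 15 had at least 10 reads, with 8 higher, 7 lower and a median of 0.17. Dlx5 (0.52 ± 0.10), Sp8 (0.34 ± 0.05) and Gata2 (0.32 ± 0.09) were furthest up. Irx1 (-1.58 ± 0.31), Otx2 (-0.62 ± 0.03) and Pax6 (-0.35 ± 0.03) were furthest down, and Otx2 and Pax6 are also genes of the forebrain and eye. Olfactory neurogenesis genes went both ways, with 5 of 8 higher and a median of 0.11, from Gap43 at -0.74 ± 0.08 to Lhx2 at 0.49 ± 0.02. Of 7 lens placode genes, 4 had at least 10 reads and 3 of those were lower (median -0.58, but -0.30 with 1 RPKM added and -1.30 without a filter on reads), with Mab21l1 at -1.30 ± 0.15. Cryaa, a crystallin of differentiated lens, had 3.79 reads in WT and 0.9 in MD43, which is the value of a gene without reads. Cryab, the other crystallin of the list, was higher on more reads, with 89.0 in WT and 170 in MD43 (0.46 ± 0.13). Of 7 genes of the otic and other placodes, 4 had at least 10 reads and 3 were lower. The list median was -1.13, but -0.30 with 1 RPKM added and -0.48 without a filter on reads. Over Pax3 and Neurog2, the genes that reached 100 reads in both WT and MD43, it was -0.43. These went opposite ways, with Pax3 higher at 0.20 ± 0.07 on 373 reads in WT and 598 in MD43. Pax8 (-2.88 ± 0.61), Pax2 (-1.20 ± 0.21) and Neurog2 (-1.06 ± 0.10) were past 2-fold. Pax8 passed the filter through WT alone, with 17.4 reads in WT and 3.29 in MD43.

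Markers of the tissues that make up the piece differed as well. In a bulk piece, fewer cells of a kind and less RNA per cell cannot be told apart. Surface ectoderm markers, from the layer that contains the placodes, were higher in 9 of 10 (median 0.60), and their summed level was 136 RPKM in WT and 204 in MD43. Cldn6 (0.87 ± 0.05), Cdh1 (0.73 ± 0.05) and Krt8 (0.70 ± 0.04) were furthest up, all further than Eya2. Markers of diencephalon and optic vesicle were lower in 9 of 9, from Rax at -2.17 ± 0.24 to Six6, about level at -0.02 ± 0.10. For 7 of the 9 the 95% counting interval left out 0. Their median was -0.68, but -0.30 with 1 RPKM added before the log and -0.34 over those that reached 100 reads in both WT and MD43. The summed level of all 9 was 31.7 RPKM in WT and 23.6 in MD43. The telencephalon list was higher in 5 of 6 (median 0.27) and the frontonasal mesenchyme list in 4 of 8 (median -0.10). Tbr1, the lower telencephalon gene, was at -1.60 ± 0.17 (109 reads in WT, 50.3 in MD43) and was the only gene of its list past 2-fold. The part of these tissue markers in the higher Eya and the lower Six3 values was not tested.

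Markers were also read for tissues outside the face that use these genes. Of 5 skeletal muscle markers, 0 reached 10 reads, and the highest value was 2.45 reads in WT and 7.21 in MD43. Of 4 nephron progenitor genes in the table, Wt1 and Osr1 stayed under 10 reads. Pax2, which other placodes also use, had 61.8 reads in WT against 37.3 in MD43. Uncx had 41.0 reads in WT against 65.2 in MD43, a difference of 0.19 ± 0.20. Alx1 and Alx4, which mark frontonasal mesenchyme, had 781 and 1926 reads in WT and 1224 and 2693 in MD43, so these markers of the labelled tissue were present. Red blood cell genes were higher in 5 of 5 (median 0.84) and endothelial genes in 1 of 5 (median -0.05, or -0.17 over those that reached 100 reads in both WT and MD43).

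**Figure D4:**
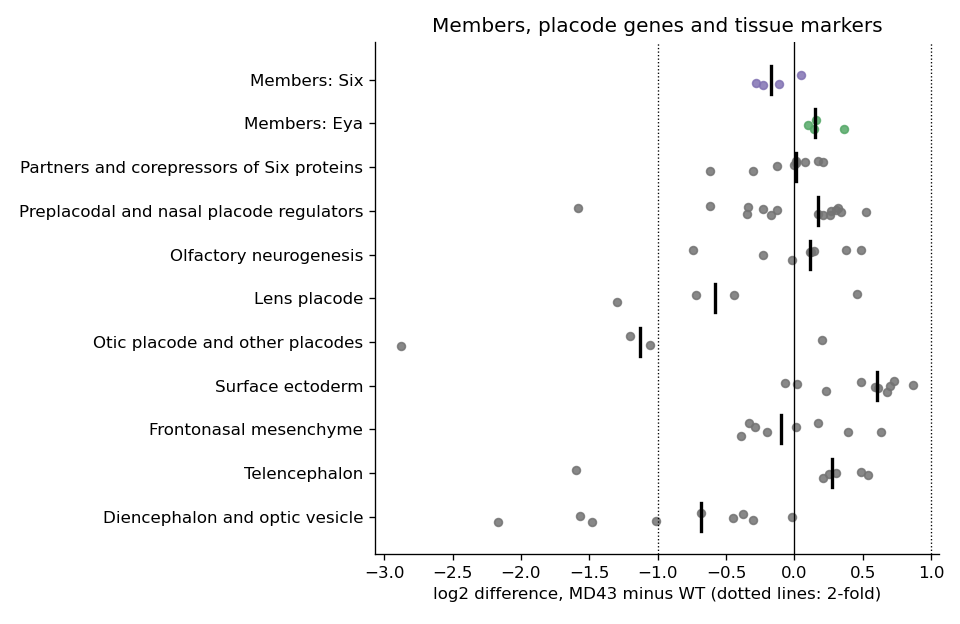
The log2 difference (MD43 minus WT) of each gene that reached 10 reads, by list, with a vertical bar at the median of the list. The Six-family members (median -0.17) and Eya members (median 0.15, or 0.23 when corrected for GC content and length) spread over less than the placode and tissue lists, where surface ectoderm lies at 0.60 and diencephalon and optic vesicle at -0.68 (-0.30 with 1 RPKM added before the log).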

How the data were processed

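RNA was sequenced from the FNPs of 4 embryos, 2 per genotype (100 ng of total RNA, stranded poly(A) libraries). The authors trimmed reads with Trim Galore 0.4.4, mapped them with HISAT2 2.0.5 to GRCm38.p6 and quantified them in SeqMonk. The deposited values are log2 RPKM, which the authors scaled to library size and to transcript length and merged into 1 column per genotype. The table used here holds autosomal genes. Columns with the authors' fold change, mean and FDR of their edgeR-based test were not used.

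Of 33708 rows, 33101 matched GENCODE M21 on symbol and coordinates and 448 more on coordinates alone. Reads were recovered from exon length and the level of genes without reads, which get 0.9 reads per library. The value then gives the product of the read counts of both libraries, and 99.9% of products under 1000 came out whole (within 0.02) in each genotype. Reads are the square root of this product, checked on simulated data. The smallest counting error treats the reads of both libraries as equal. It covers counting error alone.

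Members and lists were chosen with earlier results of these data known. All 8 members are named, and of each other list at most the 3 genes furthest up and down, besides a few marker or partner genes named after their values were seen. Python 3.11.15 was used. Some items are not reported here.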

Additional observations from a re-analysis of the deposited data

How the results depend on the processing

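For the members, alternatives added 0.1 or 1 RPKM before the log, set the median of all genes to 0, or corrected for GC content and length. Under all 32 the 8 members kept their direction, and their value within its 95% counting interval. An added constant cannot turn a direction, and setting the median to 0 shifted every gene by only 0.0053. Only the correction for GC content and length could thus have turned a direction. The largest move was that of Eya4 from 0.14 to 0.25 under the GC content and length correction, a fit that accounted for 1.4% of the variance. That correction also moved Six4 from 0.05 to 0.12 and the median of the Eya members from 0.15 to 0.23. No member passed 2-fold under any of them, nor 1.5-fold on the deposited scale. Medians of lists were held against the 95% counting interval of a gene with the median counting error of its list. That is not an interval of the median itself. List medians moved outside it in 9 of 111 alternatives. With 1 RPKM added, the median of diencephalon and optic vesicle markers went from -0.68 to -0.30, that of the lens list from -0.58 to -0.30, that of the otic list from -1.13 to -0.30 and that of red blood cell genes from 0.84 to 0.79. Without a filter on low values the lens median was -1.30, the otic median -0.48 and the nephron progenitor median -1.10 in place of -0.51. The median of genes near the members turned from 0.05 to -0.03. Genes under 10 reads enter there, among them genes without reads, listed at -0.48, and Gm4969 at -0.57 on 6.93 reads in WT and 6.48 in MD43. With at least 100 reads in both genotypes, an alternative chosen after seeing the data, the diencephalon median was -0.34 and the otic median -0.43. The latter rests on Pax3 and Neurog2 alone, which went opposite ways. No paired analysis was possible because each genotype has 1 merged column, and leaving out each library was not run for the same reason. Whether 1 embryo sets any value is unknown.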
